A study of Arabidopsis thaliana with 18 samples.

Results

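The genes described here are 130 Arabidopsis thaliana genes whose transcripts were strongly lowered by indole-3-acetic acid (IAA), the main natural auxin, in wild-type (Wt) seedlings. They were chosen from 28278 gene rows by their values in Wt alone. Counts were turned into CPM, the usual unit in which a gene's count is scaled to the total of its sample. A gene entered when its mean over the Wt mock samples was at least 2 CPM, when log2((mean IAA + 0.5)/(mean mock + 0.5)) was -1.3 or less, and when every Wt IAA sample lay below every Wt mock sample. Of 17348 genes at 2 CPM or more, 132 passed the ratio limit and 130 of these had no overlap between the treatments. At the same limit in the upward direction 261 genes would have been taken. The samples were whole 4-d-old seedlings kept for 2 h in liquid medium with IAA or with the solvent ethanol (mock), with 3 samples in each of 6 groups: aff1-3 IAA, aff1-3 mock, aff1-1 IAA, aff1-1 mock, Wt IAA and Wt mock. The sample titles and the study's methods give 10 μM IAA, whereas the treatment text in the labels gives 10 mM, and 10 μM is used here. All lines are in the Col-0 accession. aff1-1 is a point mutant from ethyl methanesulfonate mutagenesis, and the other mutant is the T-DNA insertion line Salk_083453, which the labels call aff1-2 and the study aff1-3, the name used here. Each allele is 1 line, and nothing in the labels says whether the 3 samples of a group came from separate plates. The p-values set a difference against the spread between libraries, which may be technical.

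Auxin acts by bringing Aux/IAA repressor proteins to the TIR1/AFB receptors, which mark them for destruction and so free the AUXIN RESPONSE FACTOR (ARF) transcription factors bound to DNA. Most of the textbook primary targets are switched on by this route, and less is established about how transcripts are lowered within hours, by repressor ARFs, by repressors that are themselves induced, or by turnover. AFF1 is an F-box protein, the substrate-choosing subunit of an E3 ubiquitin ligase, and it binds ARF7 and ARF19, a pair of activating ARFs that are its proposed substrates. The comparison of interest for the 130 genes is thus how far IAA still lowers them when AFF1 is mutated.

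Total counts per sample ranged between 12610301 and 36102396. The mutated gene itself, AFF1 (AT3G49150), was at 3.11, 2.72 and 3.65 CPM in aff1-3 IAA samples and 4.03, 3.76 and 5.2 CPM in aff1-3 mock samples. It was at 0.107, 0 and 0 CPM in aff1-1 IAA samples and 0.0448, 0.128 and 0.0369 CPM in aff1-1 mock samples, against 0.296, 0.256 and 0.0461 CPM in Wt IAA samples and 0.0873, 0.252 and 0.249 CPM in Wt mock samples. The insertion line thus carried more AFF1 reads than Wt. Counts per gene do not show where in the gene those reads lie, and a point mutation need not lower the count. Shoot markers (7 genes) summed to between 63157 and 73034 CPM in every sample and the 4 flower markers to 1.11 CPM or less. The 7 root markers summed to 2179 to 2437 CPM in aff1-3 IAA, 1816 to 2378 CPM in aff1-3 mock, 2613 to 2751 CPM in aff1-1 IAA and 2462 to 2661 CPM in aff1-1 mock. They summed to 3053 to 3270 CPM in Wt IAA and 3315 to 4226 CPM in Wt mock, nearly all of it from PYK10 (without it, group means were 115 to 136 CPM). The aff1-3 mock replicate 2 had the lowest root sum and also the lowest level of the 130 genes among mock samples.

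In Wt the ratio that chose the genes had a median of -1.596 on the log2 scale and reached -3.17, while 28 genes lay at -2 or less and 55 lay between -1.3 and -1.5. The members nearest to the limit were SOT18 at -1.3029 (26.6 CPM with IAA and 66.3 CPM in mock), AT3G29410 at -1.303 and FMO GS-OX1 at -1.3114. Just outside were AT4G22110 at -1.2978 (1.08 CPM with IAA and 3.38 CPM in mock), AKN2 at -1.2963 (17.3 and 43.2 CPM) and AT1G28570 at -1.29 (6.75 and 17.2 CPM). The genes were mostly of modest abundance, with a median of 11.8 CPM in Wt mock, 29 of them under 5 CPM and 14 over 50 CPM. Per kilobase of exon, the most abundant was the peroxidase gene AT4G30170, at 142 CPM per kb in Wt mock. All 130 passed the filter on low counts and were among the 19383 genes tested, but the Wt mock samples alone could meet that filter.

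The mean log2(CPM + 0.5) over the 130 genes was 2.14, 2.18 and 2.30 in the aff1-3 IAA samples, against 3.25, 2.98 and 3.17 in the aff1-3 mock samples. It was 2.26, 2.08 and 2.13 in aff1-1 IAA samples, against 3.21, 3.44 and 3.21 in aff1-1 mock samples. In Wt, where the genes were chosen for this difference, it was 1.90, 1.92 and 1.96 with IAA, against 3.72, 3.75 and 3.51 in mock. Every IAA sample of both alleles lay below every mock sample of its own genotype, and the Wt samples stood at both ends of the scale. The genes held 0.0980% of all counts in aff1-3 IAA and 0.187% in aff1-3 mock, 0.0951% in aff1-1 IAA and 0.209% in aff1-1 mock, and 0.0792% in Wt IAA and 0.266% in Wt mock. In whole seedlings, fewer cells that express a gene and less RNA of it per cell cannot be told apart.

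**Figure D1:**
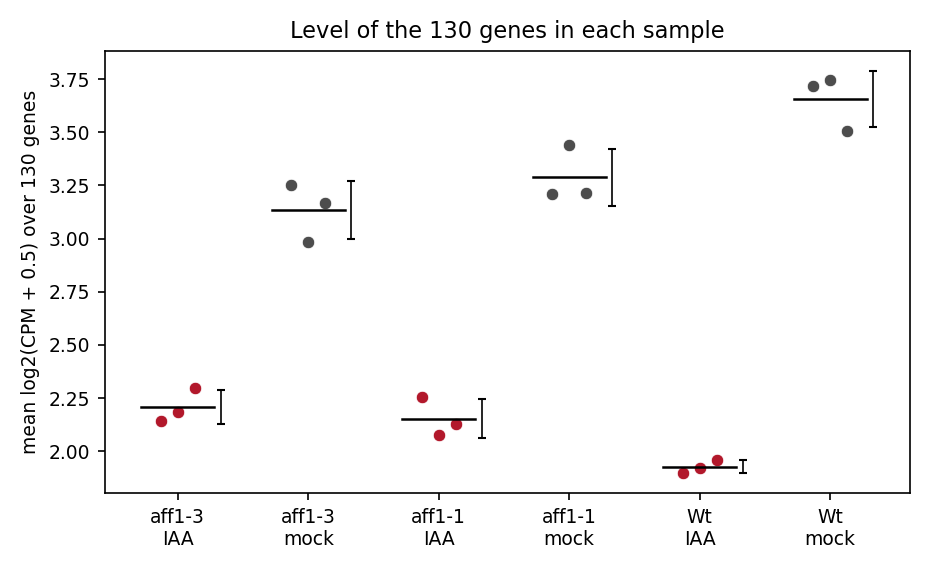
Mean log2(CPM + 0.5) over the 130 genes (y axis) in each of the 18 samples, by group (x axis), with red points for IAA, grey points for mock, lines at the group means and bars of 1 SD (n = 3). The group means were 2.21 in aff1-3 IAA, 3.14 in aff1-3 mock, 2.15 in aff1-1 IAA, 3.29 in aff1-1 mock, 1.93 in Wt IAA and 3.66 in Wt mock.

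IAA lowered most of the genes in both alleles. With edgeR's quasi-likelihood test over all genes and a Benjamini-Hochberg adjusted p below 0.01, 85 of the 130 genes (65.4%) fell in aff1-3, where 1.97% of all tested genes were called lower, and 98 (75.4%) fell in aff1-1, where 1.71% were. One gene, AT3G19020, was called higher in aff1-3 (2.98% of all tested genes were) and none in aff1-1 (3.16%), where only FMO GS-OX1 had a fitted log2 fold change above 0, of 0.0027. Both alleles called 80 genes lower (61.5%, against 1.03% of all tested genes), aff1-1 alone 18, aff1-3 alone 5, and neither 27. At an adjusted p below 0.05 the counts were 103 in aff1-3 (3.74% of all tested genes) and 107 in aff1-1 (2.91%). Counting samples instead, every IAA sample lay below every mock sample in 110 genes in aff1-3 (7.75% of all tested genes) and in 123 genes in aff1-1 (13.2%).

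The median fitted log2 fold change of the 130 genes was -1.07 in aff1-3 (quartiles -1.55 and -0.81) and -1.19 in aff1-1 (quartiles -1.59 and -0.87), where all tested genes had medians of 0.00 in both. The sign was negative in 128 genes in aff1-3 and 129 in aff1-1, against 9567 and 9784 of the 19383 tested genes. A log2 fold change of -1 or less was reached by 72 genes in aff1-3 and 82 in aff1-1, and 10 and 7 genes lay above -0.5. Of all tested genes, between 1% and 1.5% were at -1 or less in each allele. Between 5.5% and 6% were at -0.5 or less. In Wt the fitted log2 fold change of the 130 genes had a median of -1.82. It may overstate the Wt response, because the choice was made on the same Wt samples. The median ratio of a gene's fitted log2 fold change to its fitted Wt one was 0.58 in aff1-3 and 0.63 in aff1-1. The fitted fold change was lower than that of Wt in 3 genes in aff1-3 and 6 in aff1-1. Leaving out aff1-3 IAA replicate 2 gave the lowest aff1-3 count, 68, and leaving out aff1-1 IAA replicate 3 the lowest aff1-1 count, 83. Without aff1-3 mock replicate 2, the library with the lowest root marker sum, 83 genes fell in aff1-3.

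**Figure D2:**
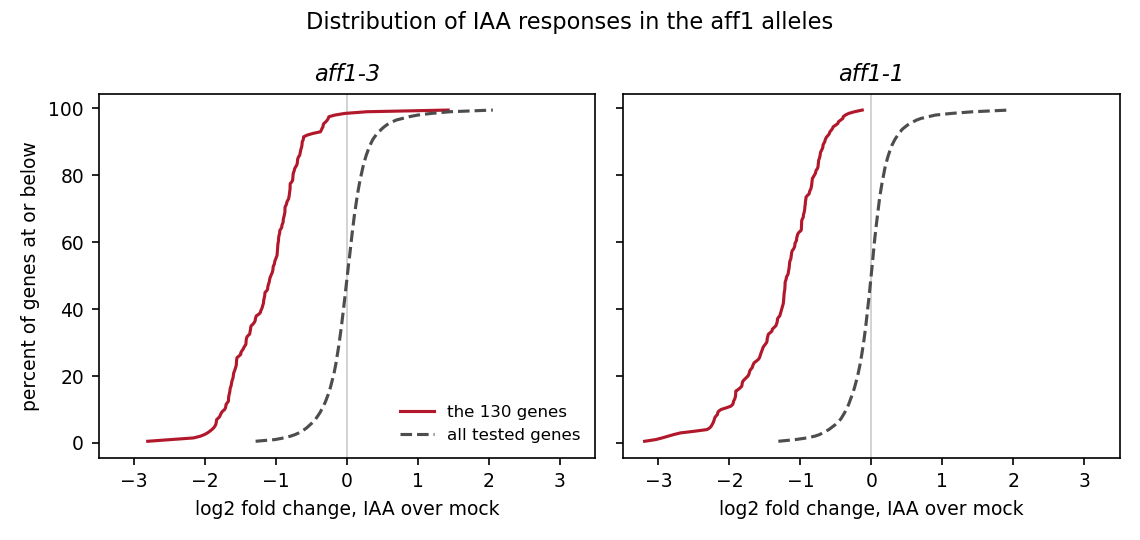
Percent of genes (y axis) at or below each log2 fold change of IAA over mock (x axis), for the 130 genes (red, solid) and all 19383 tested genes (grey, dashed), in aff1-3 on the left and aff1-1 on the right, drawn from the 0.5th to the 99.5th percentile. The red curves sit to the left, with medians of -1.07 in aff1-3 and -1.19 in aff1-1, while the grey curves cross 50 percent at 0.00.

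The sequence before the start sites was searched for the hexamers that ARFs are known to bind, since AFF1 binds ARFs. In the 500 bases before the annotated start, on either strand, 27 of the 130 genes (20.8%) held TGTCTC, the classic auxin response element, against 21.3% of 19115 tested nuclear protein-coding genes, and 7 (5.38%) held TGTCGG, the form bound most tightly, against 8.40%. At least 1 of the 2 was present in 33 genes (25.4%) and in 28.0% of all genes, so the shares lay near the background. The shorter core TGTCNN was in 93.8% of the 130 genes and 93.7% of all. The G-box CACGTG was in 6.15% of the 130 genes and 10.3% of all genes. The GATA-factor hexamer GATAAG was in 23.1% and 22.6%. The core promoter hexamer TATAAA was in 79.2% of the 130 genes and 66.9% of all genes. TGTCTC and TGTCGG are both part of the TGTCNN count. A match is a run of letters and not a shown binding site. The element is printed with its surroundings for the most strongly lowered genes that held one, for 3 of the 5 cytokinin genes and for 3 MYB genes. The other cytokinin genes, CYP735A2 and ARR6, held neither TGTCTC nor TGTCGG. Each run is 24 bases, read 5′ to 3′ on the strand where the element reads TGTCTC or TGTCGG, with the element in capitals (RefSeq, TAIR10.1).
AT5G03995 (chr5:1078361-1078384, minus strand, 65 bases before the start): tatcctactTGTCTCttcaggtca
CYP82F1 (chr2:10711390-10711413, plus strand, 117 bases): aagaaaaaaTGTCTCttttactat
AT3G45680 (chr3:16770440-16770463, plus strand, 433 bases): tttaaaggtTGTCGGttcgactga
ARR3 (chr1:22067460-22067483, plus strand, 235 bases): gctatgtctTGTCTCcacttataa
ARR7 (chr1:6579445-6579468, minus strand, 139 bases): agtagtcgcTGTCGGattgaaaga
ABCG14 (chr1:11377894-11377917, minus strand, 17 bases, inside the gene model AT1G31772): ttttttgtaTGTCTCtctctcttc
MYB40 (chr5:4623090-4623113, plus strand, 93 bases, inside the gene model AT5G02215): ttctttaatTGTCTCcgcaatcat
MYB48 (chr3:16944828-16944851, minus strand, 387 bases, inside the gene model AT3G07325): tgagagaagTGTCTCttgacttta
MYB59 (chr5:24083982-24084005, plus strand, 428 bases): attgcagtgTGTCTCttgacttta
The MYB48 and MYB59 windows shared a run of 20 bases around the element, gTGTCTCttgactttattaa on the strand opposite to each gene, the longest run common to both 500-base windows.

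Of the 130 genes, 5 belong to cytokinin synthesis, transport or signalling, and all 5 fell in both alleles, with medians of -1.096 in aff1-3 and -1.26 in aff1-1. CYP735A2 (AT1G67110, chr1:25061673-25065446, minus strand, 4 exons), the hydroxylase that makes trans-zeatin-type cytokinins, was at 0.512, 0.302 and 0.555 CPM in aff1-3 IAA samples, against 4.11, 2.01 and 2.204 CPM in aff1-3 mock samples. It was at 0.925, 0.207 and 0.418 CPM in aff1-1 IAA samples, against 3.09, 3.64 and 3.87 CPM in aff1-1 mock samples. In Wt it was at 0, 0.288 and 0.277 CPM with IAA, against 4.72, 4.33 and 4.29 CPM in mock. It fell by 2.64 ± 0.44 on the log2 scale in aff1-3 (edgeR adjusted p = 0.000263) and fell by 2.67 ± 0.40 on the log2 scale in aff1-1 (edgeR adjusted p = 6.91e-05), and no sample overlapped between treatments in any genotype. ABCG14, which exports cytokinin from the root toward the shoot, was at 19.7, 19.9 and 12.5 CPM in aff1-3 IAA samples, against 47.4, 23.7 and 31.6 CPM in aff1-3 mock samples. It was at 19.3, 13.6 and 14.6 CPM in aff1-1 IAA samples, against 44.1, 34.2 and 38.1 CPM in aff1-1 mock samples. It fell by 0.99 ± 0.19 on the log2 scale in aff1-3 (edgeR adjusted p = 0.00118) and fell by 1.26 ± 0.19 on the log2 scale in aff1-1 (edgeR adjusted p = 6.96e-05). The IAA samples of both alleles overlapped the Wt IAA samples (19.2, 16.5 and 17.7 CPM), while every aff1 mock sample lay under every Wt mock sample (56.9, 50.9 and 54.7 CPM).

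The type-A response regulators are induced by cytokinin and dampen its signal. ARR6 (AT5G62920, chr5:25252007-25254318, minus strand) was at 4.09, 3.38 and 3.41 CPM in aff1-3 IAA samples, against 10.07, 8.54 and 9.103 CPM in aff1-3 mock samples. It was at 5.02, 5.58 and 3.86 CPM in aff1-1 IAA samples, against 11.9, 12.01 and 9.29 CPM in aff1-1 mock samples. In Wt it was at 4.67, 3.55 and 4.29 CPM with IAA, against 21.3, 20.9 and 19.2 CPM in mock. The IAA samples of the 3 genotypes overlapped in level, whereas every aff1 mock sample lay under every Wt mock sample. ARR6 fell by 1.37 ± 0.15 on the log2 scale in aff1-3 (edgeR adjusted p = 1.31e-06) and fell by 1.17 ± 0.14 on the log2 scale in aff1-1 (edgeR adjusted p = 5.48e-06). It overlaps AT5G62910 on the other strand (10.8 CPM in Wt mock), and whether the counting used strand is not given in the sources used here. ARR3 fell by 1.096 ± 0.23 on the log2 scale in aff1-3 (edgeR adjusted p = 0.00312) and fell by 1.73 ± 0.24 on the log2 scale in aff1-1 (edgeR adjusted p = 2.92e-05). ARR7 fell by 0.801 ± 0.16 on the log2 scale in aff1-3 (edgeR adjusted p = 0.00187) and fell by 0.84 ± 0.16 on the log2 scale in aff1-1 (edgeR adjusted p = 0.000796). The aff1-3 calls were lost for ARR3 without aff1-3 IAA replicate 2 (edgeR adjusted p = 0.0322), mock replicate 1 (0.0158) or mock replicate 3 (0.0152). They were lost for ARR7 without IAA replicate 2 (0.0159) or mock replicate 1 (0.0119), and for ABCG14 without IAA replicate 3 (0.0101) or mock replicate 1 (0.0105). Of 10 type-A response regulator genes 8 were tested and 6 fell in each allele, 3 of these 6 not among the 130. Of 7 cytokinin oxidase (CKX) genes, which break cytokinin down, 6 were tested, none fell, and 2 were called higher in aff1-3 and 3 in aff1-1. With only the 2 groups of aff1-3 in the fit, 3 of the response regulators fell in aff1-3, and ARR7 (0.0180) and ABCG14 (0.0190) lost their calls.

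Among 6 genes of other hormones, 4 fell in aff1-3 and 5 in aff1-1. YUC6, a flavin monooxygenase of auxin synthesis, was at 1.24, 1.16 and 1.19 CPM in aff1-3 IAA samples, against 3.68, 2.35 and 2.75 CPM in aff1-3 mock samples. It was at 1.74, 1.24 and 0.9005 CPM in aff1-1 IAA samples, against 3.72, 5.11 and 3.095 CPM in aff1-1 mock samples. It fell by 1.32 ± 0.28 on the log2 scale in aff1-3 (edgeR adjusted p = 0.00276) and fell by 1.56 ± 0.26 on the log2 scale in aff1-1 (edgeR adjusted p = 0.000249). Its aff1-3 call was lost without IAA replicate 1 (edgeR adjusted p = 0.0143), IAA replicate 2 (0.0184), IAA replicate 3 (0.0111) or mock replicate 1 (0.0175) of aff1-3 and with only the groups compared in the fit (0.0116). GA3OX1 (AT1G15550, chr1:5344388-5346342, minus strand), which completes the synthesis of active gibberellins, fell by 0.9 ± 0.13 on the log2 scale in aff1-3 (edgeR adjusted p = 7.27e-05) and fell by 0.75 ± 0.13 on the log2 scale in aff1-1 (edgeR adjusted p = 0.000506). ROT3, a cytochrome P450 of brassinosteroid synthesis, fell by 0.76 ± 0.12 on the log2 scale in aff1-3 (edgeR adjusted p = 0.000116) and fell by 0.75 ± 0.12 on the log2 scale in aff1-1 (edgeR adjusted p = 0.000105). These 3 genes come from the synthesis of 3 different hormones. The SAUR-like gene AT4G31320 was at 3.03, 1.66 and 1.51 CPM in aff1-3 IAA samples, against 5.89, 8.37 and 6.25 CPM in aff1-3 mock samples. It fell by 1.71 ± 0.27 on the log2 scale in aff1-3 (edgeR adjusted p = 0.000179) and fell by 1.95 ± 0.28 on the log2 scale in aff1-1 (edgeR adjusted p = 3.64e-05). Of the 78 SAUR genes 58 were tested, and 26 were called higher in aff1-3 and 22 in aff1-1, while 1 was called lower in aff1-3 and 2 in aff1-1. The other SAUR-like member, AT5G10990, had -1.005 ± 0.25 in aff1-3 (edgeR adjusted p = 0.0117) and fell by 1.28 ± 0.25 on the log2 scale in aff1-1 (edgeR adjusted p = 0.00131). This call was lost without aff1-1 IAA replicate 3 (0.0138). None of the 24 Aux/IAA genes was a member. Of the 21 tested, 18 were called higher and 1 lower in each allele. CYP714A1, a gibberellin-inactivating P450, was past the threshold in neither allele, at -0.74 ± 0.36 in aff1-3 (edgeR adjusted p = 0.259) and -0.699 ± 0.34 in aff1-1 (edgeR adjusted p = 0.286).

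The 7 signalling genes had medians of -1.497 in aff1-3 and -1.39 in aff1-1, the lowest of the 10 role groups, and 5 fell in aff1-3 and 6 in aff1-1. CLE2 (AT4G18510, chr4:10211577-10212452, plus strand, 1 exon), which encodes a secreted CLE peptide precursor, was at 3.03, 5.04 and 6.11 CPM in aff1-3 IAA samples, against 17.3, 12.4 and 14.7 CPM in aff1-3 mock samples. It was at 3.702, 3.52 and 4.08 CPM in aff1-1 IAA samples, against 13.8, 12.8 and 16.8 CPM in aff1-1 mock samples. The Wt values were 1.83, 1.12 and 1.06 CPM with IAA, against 7.86, 9.67 and 7.37 CPM in mock. In this gene every aff1 mock sample lay above every Wt mock sample and every aff1 IAA sample above every Wt IAA sample. It fell by 1.72 ± 0.21 on the log2 scale in aff1-3 (edgeR adjusted p = 4.5e-06) and fell by 1.91 ± 0.21 on the log2 scale in aff1-1 (edgeR adjusted p = 8.33e-07). CAM8, a calmodulin, fell by 1.497 ± 0.31 on the log2 scale in aff1-3 (edgeR adjusted p = 0.00283) and fell by 2.23 ± 0.32 on the log2 scale in aff1-1 (edgeR adjusted p = 5.55e-05). The aff1-3 call was lost without aff1-3 IAA replicate 1 (0.0182), IAA replicate 2 (0.0274), mock replicate 1 (0.0111) or mock replicate 3 (0.0175). The receptor-like kinase gene AT5G24100 had -0.37 ± 0.45 in aff1-3 (edgeR adjusted p = 0.715) and fell by 2.17 ± 0.44 on the log2 scale in aff1-1 (edgeR adjusted p = 0.00192). This call was lost without aff1-1 IAA replicate 3 (0.0209). The difference between its responses was 1.797 ± 0.64 with an edgeR adjusted p of 0.587, so an allele difference was not shown.

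Of 11 transcription factor genes outside glucosinolate control, 9 fell in aff1-3 and 10 in aff1-1. LBD25 (AT3G27650, chr3:10238514-10240648, plus strand), of the LOB domain family, was at 5.84, 5.995 and 7.45 CPM in aff1-3 IAA samples, against 13.1, 14.9 and 11.1 CPM in aff1-3 mock samples. It was at 5.41, 5.89 and 5.82 CPM in aff1-1 IAA samples, against 11.9, 15.9 and 15 CPM in aff1-1 mock samples. Wt samples had 1.302, 1.79 and 1.52 CPM with IAA, against 12.1, 13.96 and 12.05 CPM in mock. The mock samples overlapped between the genotypes, and every aff1 IAA sample lay above every Wt IAA sample. LBD25 fell by 1.06 ± 0.16 on the log2 scale in aff1-3 (edgeR adjusted p = 5.78e-05) and fell by 1.29 ± 0.15 on the log2 scale in aff1-1 (edgeR adjusted p = 3.55e-06). MYB40 was among the 5 genes with the largest mean fall over both alleles. It fell by 2.13 ± 0.29 on the log2 scale in aff1-3 (edgeR adjusted p = 2.37e-05) and fell by 2.82 ± 0.29 on the log2 scale in aff1-1 (edgeR adjusted p = 4.78e-07). Its aff1-1 values were 0.534, 0.362 and 0.4502 CPM in aff1-1 IAA samples, against 3.58, 3.45 and 2.98 CPM in aff1-1 mock samples. MYB48 and MYB59 are a related pair. MYB48 fell by 1.43 ± 0.14 on the log2 scale in aff1-3 (edgeR adjusted p = 3.13e-07) and fell by 1.13 ± 0.14 on the log2 scale in aff1-1 (edgeR adjusted p = 4.91e-06). MYB59 fell by 0.7 ± 0.13 on the log2 scale in aff1-3 (edgeR adjusted p = 0.000634) and fell by 0.83 ± 0.13 on the log2 scale in aff1-1 (edgeR adjusted p = 8.29e-05). The bHLH gene AT1G31050 fell by 1.84 ± 0.27 on the log2 scale in aff1-3 (edgeR adjusted p = 6.32e-05) and fell by 2.33 ± 0.26 on the log2 scale in aff1-1 (edgeR adjusted p = 1.92e-06). Per kilobase the most abundant of the group was the ethylene-response-factor gene AT5G07580 (96.6 CPM per kb in Wt mock), at 25.6, 25.5 and 28.2 CPM in aff1-3 IAA samples, against 57.2, 60.3 and 58.4 CPM in aff1-3 mock samples. It fell by 1.19 ± 0.10 on the log2 scale in aff1-3 (edgeR adjusted p = 1.87e-08) and fell by 0.75 ± 0.10 on the log2 scale in aff1-1 (edgeR adjusted p = 1.18e-05). MYB86 was past the threshold in neither allele, at -0.63 ± 0.22 in aff1-3 (edgeR adjusted p = 0.078) and -0.595 ± 0.21 in aff1-1 (edgeR adjusted p = 0.0973).

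Glucosinolates are the sulfur-rich defence compounds of the cabbage family, and 9 of the genes make them or control their making. Of these, 6 fell in aff1-3 and 5 in aff1-1, with medians of -0.98 and -0.55. MYB34 (AT5G60890, chr5:24494291-24496371, plus strand), the regulator of the indolic branch, was at 4.77, 4.23 and 4.28 CPM in aff1-3 IAA samples, against 14.6, 13.3 and 14.6 CPM in aff1-3 mock samples. It was at 5.27, 6.67 and 4.86 CPM in aff1-1 IAA samples, against 13.7, 16.99 and 12.2 CPM in aff1-1 mock samples. In Wt its level was 6.74, 4.73 and 5.67 CPM with IAA, against 26.6, 24.3 and 23.2 CPM in mock. MYB34 fell by 1.705 ± 0.15 on the log2 scale in aff1-3 (edgeR adjusted p = 3.18e-08) and fell by 1.32 ± 0.14 on the log2 scale in aff1-1 (edgeR adjusted p = 7.03e-07), and its aff1 mock samples all lay under its Wt mock samples. CYP79B2 (AT4G39950, chr4:18525042-18527602, plus strand), which turns tryptophan into indole-3-acetaldoxime, a precursor of indolic glucosinolates, was at 42.7, 40.5 and 29.3 CPM in aff1-3 IAA samples, against 84.2, 56.3 and 74.8 CPM in aff1-3 mock samples. It was at 38.7, 36.7 and 37.1 CPM in aff1-1 IAA samples, against 78.8, 85.7 and 78.6 CPM in aff1-1 mock samples. The Wt samples were at 58.6, 60.9 and 54.7 CPM with IAA, against 170.4, 162 and 162 CPM in mock. Both treatments were lower in the alleles than in Wt in this gene, with every aff1 IAA sample under every Wt IAA sample and every aff1 mock sample under every Wt mock sample. CYP79B2 fell by 0.96 ± 0.12 on the log2 scale in aff1-3 (edgeR adjusted p = 1.03e-05) and fell by 1.08 ± 0.12 on the log2 scale in aff1-1 (edgeR adjusted p = 1.85e-06).

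On the aliphatic branch, its regulator MYB28 fell by 1.16 ± 0.13 on the log2 scale in aff1-3 (edgeR adjusted p = 2.42e-06) and fell by 1.23 ± 0.13 on the log2 scale in aff1-1 (edgeR adjusted p = 7.45e-07). IPMI1, of methionine chain elongation, fell by 0.98 ± 0.13 on the log2 scale in aff1-3 (edgeR adjusted p = 1.3e-05) and fell by 0.98 ± 0.13 on the log2 scale in aff1-1 (edgeR adjusted p = 1.11e-05). The sulfotransferase gene SOT18, of the last core step, fell by 0.71 ± 0.11 on the log2 scale in aff1-3 (edgeR adjusted p = 8.19e-05) and fell by 0.55 ± 0.11 on the log2 scale in aff1-1 (edgeR adjusted p = 0.00125). The aff1-1 call was lost without aff1-1 IAA replicate 2 (0.0134) or mock replicate 3 (0.0112). MYB122, another indolic regulator, fell by 1.58 ± 0.19 on the log2 scale in aff1-3 (edgeR adjusted p = 5.13e-06) and was at -0.33 ± 0.18 in aff1-1 (edgeR adjusted p = 0.372). It was at 2.64, 3.27 and 3.33 CPM in aff1-3 IAA samples, against 7.82, 9.44 and 9.501 CPM in aff1-3 mock samples. It was at 4.49, 6.98 and 4.502 CPM in aff1-1 IAA samples, against 7.88, 6.64 and 5.79 CPM in aff1-1 mock samples, so that the treatments overlapped in aff1-1. The difference between the responses was -1.25 ± 0.27 with an edgeR adjusted p of 0.417. MYB29 had -1.28 ± 0.35 in aff1-3 (edgeR adjusted p = 0.0234) and -0.403 ± 0.31 in aff1-1 (edgeR adjusted p = 0.575). FMO GS-OX1, which oxidizes the side chain, had -0.803 ± 0.32 in aff1-3 (edgeR adjusted p = 0.146) and 0.00 ± 0.30 in aff1-1 (edgeR adjusted p = 0.999). Over a list of 38 glucosinolate genes, 37 were tested, 22 fell in aff1-3 and 16 in aff1-1, and none was called higher. Without the 9 members the counts were 16 and 11 of 28, and with only the 2 groups of aff1-3 in the fit 15 of the 37 fell in aff1-3.

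Of 17 genes of other specialised metabolism, 9 fell in aff1-3 and 13 in aff1-1. The P450 gene CYP82F1 (AT2G25160, chr2:10708993-10711281, minus strand) was at 6.65, 7.46 and 7.93 CPM in aff1-3 IAA samples, against 32.3, 13.97 and 22.1 CPM in aff1-3 mock samples. It was at 5.94, 3.88 and 6.85 CPM in aff1-1 IAA samples, against 19.2, 20.6 and 20.97 CPM in aff1-1 mock samples. It fell by 1.67 ± 0.22 on the log2 scale in aff1-3 (edgeR adjusted p = 1.92e-05) and fell by 1.81 ± 0.22 on the log2 scale in aff1-1 (edgeR adjusted p = 6.53e-06). The sulfotransferase gene ST4B, at 84.9 CPM per kb of exon in Wt mock, was at 32.1, 29.8 and 36 CPM in aff1-3 IAA samples, against 88.2, 52.3 and 78.5 CPM in aff1-3 mock samples. Wt levels were 22.4, 21.95 and 19.8 CPM with IAA, against 112, 138 and 101 CPM in mock. It fell by 1.197 ± 0.17 on the log2 scale in aff1-3 (edgeR adjusted p = 2.66e-05) and fell by 1.401 ± 0.17 on the log2 scale in aff1-1 (edgeR adjusted p = 3.22e-06). The UDP-glycosyltransferase gene AT2G22930 fell by 1.56 ± 0.26 on the log2 scale in aff1-3 (edgeR adjusted p = 0.000232) and fell by 2.25 ± 0.26 on the log2 scale in aff1-1 (edgeR adjusted p = 2.04e-06). The thalianol genes, neighbours on chromosome 5 that make and modify a root triterpene, had 2 members. CYP705A5 was at 14.9, 18.8 and 18 CPM in aff1-3 IAA samples, against 29.2, 25.5 and 35.6 CPM in aff1-3 mock samples. It was at 36.2, 26.6 and 36.5 CPM in aff1-1 IAA samples, against 42.04, 37.6 and 53.7 CPM in aff1-1 mock samples. It fell by 0.85 ± 0.20 on the log2 scale in aff1-3 (edgeR adjusted p = 0.00866) and was at -0.39 ± 0.19 in aff1-1 (edgeR adjusted p = 0.277), and its aff1-3 call was lost without any of 9 single libraries. The edgeR adjusted p was 0.0602, 0.0220 and 0.0234 without aff1-3 IAA replicates 1, 2 and 3, and 0.0146 and 0.0489 without aff1-3 mock replicates 1 and 3. It was 0.0112 without aff1-1 IAA replicate 3, 0.0107 without aff1-1 mock replicate 1, and 0.0118 without Wt IAA replicate 2 and also without Wt mock replicate 3. The call was lost too with limma (0.0232), with column sums alone as library sizes (0.0106) and with the replicate number as a block (edgeR adjusted p = 0.0118). The acyltransferase gene AT5G47980 was past 0.01 in neither allele, at -0.82 ± 0.25 in aff1-3 (edgeR adjusted p = 0.0453) and -0.65 ± 0.25 in aff1-1 (edgeR adjusted p = 0.13). DFR, the dihydroflavonol reductase of anthocyanin synthesis, was at -0.36 ± 0.20 in aff1-3 (edgeR adjusted p = 0.34) and fell by 0.99 ± 0.21 on the log2 scale in aff1-1 (edgeR adjusted p = 0.0028). This call was lost without aff1-1 IAA replicate 1 (0.0204), IAA replicate 2 (0.0144) or mock replicate 3 (0.0410).

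Of 14 transport genes, 8 fell in aff1-3 and 11 in aff1-1, with medians of -1.07 and -1.39. The gene with the lowest Wt ratio of all 130 was AT3G45700 (chr3:16778713-16781268, plus strand), annotated as a major facilitator superfamily protein, at 2.899, 2.22 and 3.41 CPM in aff1-3 IAA samples, against 12.98, 6.79 and 10.4 CPM in aff1-3 mock samples. It was at 2.78, 2.22 and 2.605 CPM in aff1-1 IAA samples, against 11.6, 11.9 and 10.5 CPM in aff1-1 mock samples. In Wt it was at 0.651, 1.37 and 1.71 CPM with IAA, against 19.4, 15.6 and 10.4 CPM in mock. It fell by 1.87 ± 0.26 on the log2 scale in aff1-3 (edgeR adjusted p = 2.45e-05) and fell by 2.11 ± 0.25 on the log2 scale in aff1-1 (edgeR adjusted p = 3.26e-06), and every aff1 IAA sample lay above every Wt IAA sample. Several of the transport genes load or unload the xylem. NRT1.5 (AT1G32450, chr1:11715147-11719988, minus strand), which moves nitrate into the xylem, was at 34.3, 30.8 and 35.1 CPM in aff1-3 IAA samples, against 75.1, 52.6 and 65.96 CPM in aff1-3 mock samples. It was at 38.02, 26.6 and 28.98 CPM in aff1-1 IAA samples, against 78.4, 76.9 and 69.8 CPM in aff1-1 mock samples. It fell by 0.98 ± 0.13 on the log2 scale in aff1-3 (edgeR adjusted p = 1.22e-05) and fell by 1.23 ± 0.13 on the log2 scale in aff1-1 (edgeR adjusted p = 5.28e-07), and its gene overlaps PKp3 (50.3 CPM in Wt mock) on the other strand. HMA2, a zinc pump, fell by 1.76 ± 0.37 on the log2 scale in aff1-3 (edgeR adjusted p = 0.00281) and fell by 1.94 ± 0.32 on the log2 scale in aff1-1 (edgeR adjusted p = 0.00027). The aff1-3 call was lost without aff1-3 IAA replicate 1 (0.0209) or IAA replicate 3 (0.0159) and with limma (0.0199). SKOR, a potassium channel, was at -0.76 ± 0.37 in aff1-3 (edgeR adjusted p = 0.259) and -0.54 ± 0.35 in aff1-1 (edgeR adjusted p = 0.474). HKT1, which takes sodium out of the xylem, was at -1.17 ± 0.43 in aff1-3 (edgeR adjusted p = 0.113) and -1.67 ± 0.41 in aff1-1 (edgeR adjusted p = 0.0115). Of the 8 genes on a list of xylem ion transporters, 4 fell in each allele, 2 of them members, and with limma 2 fell in aff1-3.

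The purine permease gene PUP4 fell by 1.67 ± 0.20 on the log2 scale in aff1-3 (edgeR adjusted p = 5.48e-06) and fell by 1.92 ± 0.20 on the log2 scale in aff1-1 (edgeR adjusted p = 5.89e-07). UMAMIT17, of the amino acid exporter family, fell by 1.09 ± 0.18 on the log2 scale in aff1-3 (edgeR adjusted p = 0.000252) and fell by 1.86 ± 0.18 on the log2 scale in aff1-1 (edgeR adjusted p = 1.65e-07). None of the 3 aquaporin members was called in aff1-3. NLM1 was at 6.69, 6.499 and 7.77 CPM in aff1-3 IAA samples, against 9.06, 4.14 and 8.02 CPM in aff1-3 mock samples. It was at 4.27, 2.58 and 3.18 CPM in aff1-1 IAA samples, against 5.37, 9.52 and 5.64 CPM in aff1-1 mock samples. In Wt it was at 3.25, 3.36 and 3.36 CPM with IAA, against 26.3, 23.1 and 8.12 CPM in mock. Its log2 fold change was -0.06 ± 0.33 in aff1-3 (edgeR adjusted p = 0.946) and -0.96 ± 0.35 in aff1-1 (edgeR adjusted p = 0.108), and the aff1-3 treatments overlapped. PIP2;4 was at -0.61 ± 0.17 in aff1-3 (edgeR adjusted p = 0.0223) and fell by 0.73 ± 0.16 on the log2 scale in aff1-1 (edgeR adjusted p = 0.0053). TIP2;3 was at -0.34 ± 0.20 in aff1-3 (edgeR adjusted p = 0.381) and fell by 0.88 ± 0.20 on the log2 scale in aff1-1 (edgeR adjusted p = 0.00541). Both aff1-1 calls depended on single libraries. The edgeR adjusted p of PIP2;4 was 0.0133, 0.0390 and 0.0164 without aff1-1 IAA replicates 1, 2 and 3 and 0.0539 without mock replicate 2. That of TIP2;3 was 0.0282 and 0.0368 without IAA replicates 1 and 2 and 0.0354 and 0.0240 without mock replicates 2 and 3.

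Of the 24 genes of the cell wall and apoplast, 12 fell in aff1-3 and 15 in aff1-1. The 3 class III peroxidases, which build or loosen wall polymers with hydrogen peroxide, gave different calls. AT4G30170 (chr4:14762819-14764636, plus strand) was at 70.2, 70.4 and 77.8 CPM in aff1-3 IAA samples, against 101, 69.9 and 89.9 CPM in aff1-3 mock samples. It was at 52.4, 39.2 and 42.9 CPM in aff1-1 IAA samples, against 94.5, 129.9 and 87.6 CPM in aff1-1 mock samples. The Wt values were 55.3, 54.3 and 53.6 CPM with IAA, against 189, 188 and 147 CPM in mock. Its log2 fold change was -0.29 ± 0.14 in aff1-3 (edgeR adjusted p = 0.236), with overlapping treatments, and it fell by 1.17 ± 0.14 on the log2 scale in aff1-1 (edgeR adjusted p = 3.27e-06). AT2G39040 fell by 1.37 ± 0.29 on the log2 scale in aff1-3 (edgeR adjusted p = 0.00281) and fell by 2.203 ± 0.29 on the log2 scale in aff1-1 (edgeR adjusted p = 1.41e-05). The aff1-3 call was lost without aff1-3 IAA replicate 1 (0.0175), 2 (0.0148) or 3 (0.0135) or mock replicate 1 (0.0123) or 3 (0.0179). AT3G01190 was past 0.01 in neither, at -0.25 ± 0.19 in aff1-3 (edgeR adjusted p = 0.519) and -0.68 ± 0.19 in aff1-1 (edgeR adjusted p = 0.0274). Among the wall hydrolases, BGAL4 (AT5G56870, chr5:23003909-23009672, plus strand), a beta-galactosidase, was at 28.5, 41.01 and 38.2 CPM in aff1-3 IAA samples, against 76.5, 66.2 and 59.4 CPM in aff1-3 mock samples. It fell by 0.95 ± 0.12 on the log2 scale in aff1-3 (edgeR adjusted p = 5.82e-06) and fell by 1.197 ± 0.12 on the log2 scale in aff1-1 (edgeR adjusted p = 1.77e-07).

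Of the 4 pectin lyase-like genes, AT3G26610 was at 1.53, 0.655 and 0.714 CPM in aff1-3 IAA samples, against 3.37, 2.39 and 3.68 CPM in aff1-3 mock samples. It was at 0.5696, 0.414 and 0.547 CPM in aff1-1 IAA samples, against 3.895, 6.07 and 3.83 CPM in aff1-1 mock samples. It fell by 1.67 ± 0.29 on the log2 scale in aff1-3 (edgeR adjusted p = 0.000449) and fell by 3.08 ± 0.30 on the log2 scale in aff1-1 (edgeR adjusted p = 2.21e-07), the second being the next largest of the 130 genes in aff1-1 after AT3G45680. With only the groups compared in the fit the aff1-3 call was lost (0.0122). AT3G15720 fell by 1.63 ± 0.28 on the log2 scale in aff1-3 (edgeR adjusted p = 0.000392) and fell by 1.35 ± 0.28 on the log2 scale in aff1-1 (edgeR adjusted p = 0.00275). The aff1-1 call was lost without aff1-1 IAA replicate 1 (0.0170), IAA replicate 3 (0.0196), mock replicate 1 (0.0199) or mock replicate 3 (0.0143). AT1G05660 was called in neither allele, but every aff1 sample was under 1 CPM and the gene passed the low-count filter through Wt mock alone. It was at 0.298, 0.453 and 0.397 CPM in aff1-3 IAA samples, against 0.271, 0.342 and 0.217 CPM in aff1-3 mock samples. It was at 0.392, 0.155 and 0.193 CPM in aff1-1 IAA samples, against 0.672, 0.767 and 0.442 CPM in aff1-1 mock samples. Wt samples had 0.0592, 0.224 and 0.0461 CPM with IAA, against 4.24, 3.03 and 1.44 CPM in mock, so that its aff1 mock samples were already under every Wt mock sample. In AT2G43880 too, every aff1 mock sample lay under every Wt mock sample, and this gene also passed the filter through Wt samples alone. It was at 0.81, 0.605 and 0.238 CPM in aff1-3 IAA samples, against 0.658, 0.897 and 0.6502 CPM in aff1-3 mock samples. It was at 1.17, 0.207 and 0.354 CPM in aff1-1 IAA samples, against 0.537, 2.43 and 0.811 CPM in aff1-1 mock samples. Wt levels were 0.947, 1.21 and 1.29 CPM with IAA, against 6.37, 8.07 and 3.57 CPM in mock. Its log2 fold change was -0.34 ± 0.60 in aff1-3 (edgeR adjusted p = 0.817) and -0.93 ± 0.55 in aff1-1 (edgeR adjusted p = 0.416). EXPA14, an expansin that loosens walls, fell by 1.296 ± 0.29 on the log2 scale in aff1-3 (edgeR adjusted p = 0.00507) and fell by 2.21 ± 0.30 on the log2 scale in aff1-1 (edgeR adjusted p = 2.2e-05). The aff1-3 call was lost without aff1-3 IAA replicate 1 (0.0161), 2 (0.0375) or 3 (0.0180) or mock replicate 1 (0.0235) or 3 (0.0142) and with limma (0.0116). Root hair markers (7 genes, none of them a member) summed to 174 to 199 CPM in aff1-3 IAA, 155 to 196 CPM in aff1-3 mock, 162 to 189 CPM in aff1-1 IAA and 178 to 235 CPM in aff1-1 mock. They summed to 271 to 310 CPM in Wt IAA and 306 to 337 CPM in Wt mock, and their part in these levels was not tested.

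The 8 genes of primary metabolism fell in 6 cases in aff1-3 and 7 in aff1-1. TPPB, a trehalose-6-phosphate phosphatase, was at 4.05, 4.43 and 3.96 CPM in aff1-3 IAA samples, against 13.4, 12.1 and 12.8 CPM in aff1-3 mock samples. It was at 5.27, 4.45 and 4.63 CPM in aff1-1 IAA samples, against 13.97, 16.3 and 11.5 CPM in aff1-1 mock samples. It fell by 1.65 ± 0.14 on the log2 scale in aff1-3 (edgeR adjusted p = 2.12e-08) and fell by 1.495 ± 0.13 on the log2 scale in aff1-1 (edgeR adjusted p = 5.35e-08). In Wt it was at 3.31, 3.71 and 3.41 CPM with IAA, against 13.5, 15.7 and 14.5 CPM in mock, so that every aff1 IAA sample lay above every Wt IAA sample. AK3, an aspartate kinase, fell by 1.42 ± 0.15 on the log2 scale in aff1-3 (edgeR adjusted p = 4.49e-07) and fell by 1.22 ± 0.14 on the log2 scale in aff1-1 (edgeR adjusted p = 3.22e-06). The galactose mutarotase-like gene AT3G01260 fell by 1.04 ± 0.16 on the log2 scale in aff1-3 (edgeR adjusted p = 9.24e-05) and fell by 1.72 ± 0.16 on the log2 scale in aff1-1 (edgeR adjusted p = 8.77e-08). Its IAA samples stood at 5.58, 5.19 and 6.82 CPM in aff1-3 and 4.49, 3.83 and 4.53 CPM in aff1-1, all above the Wt IAA samples (2.19, 3.45 and 2.44 CPM). AT4G02850 was past 0.01 in neither allele, at -0.63 ± 0.29 in aff1-3 (edgeR adjusted p = 0.221) and -0.201 ± 0.26 in aff1-1 (edgeR adjusted p = 0.78). Of the 29 genes with other or unknown function, 21 fell in each allele. The largest fall of the 130 genes in aff1-3 was in one of them, AT5G03995 (chr5:1077483-1078304, minus strand), at 0.298, 0.504 and 0.317 CPM in aff1-3 IAA samples, against 3.49, 3.33 and 2.82 CPM in aff1-3 mock samples. It was at 0.427, 0.569 and 0.708 CPM in aff1-1 IAA samples, against 3.81, 7.86 and 2.36 CPM in aff1-1 mock samples. It fell by 3.11 ± 0.40 on the log2 scale in aff1-3 (edgeR adjusted p = 1.2e-05) and fell by 2.94 ± 0.35 on the log2 scale in aff1-1 (edgeR adjusted p = 3.35e-06). It overlaps AT5G03990 on the other strand (4.98 CPM in Wt mock). The oleosin gene OLEO4 was past 0.01 in neither allele, at -1.11 ± 0.30 in aff1-3 (edgeR adjusted p = 0.0201) and -0.72 ± 0.29 in aff1-1 (edgeR adjusted p = 0.159). Seed storage markers were highest in aff1-1 IAA replicate 1 (54.1 CPM), Wt IAA replicate 1 (24.97 CPM) and Wt mock replicate 2 (19.6 CPM). Their part in its level was not tested.

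**Figure D3:**
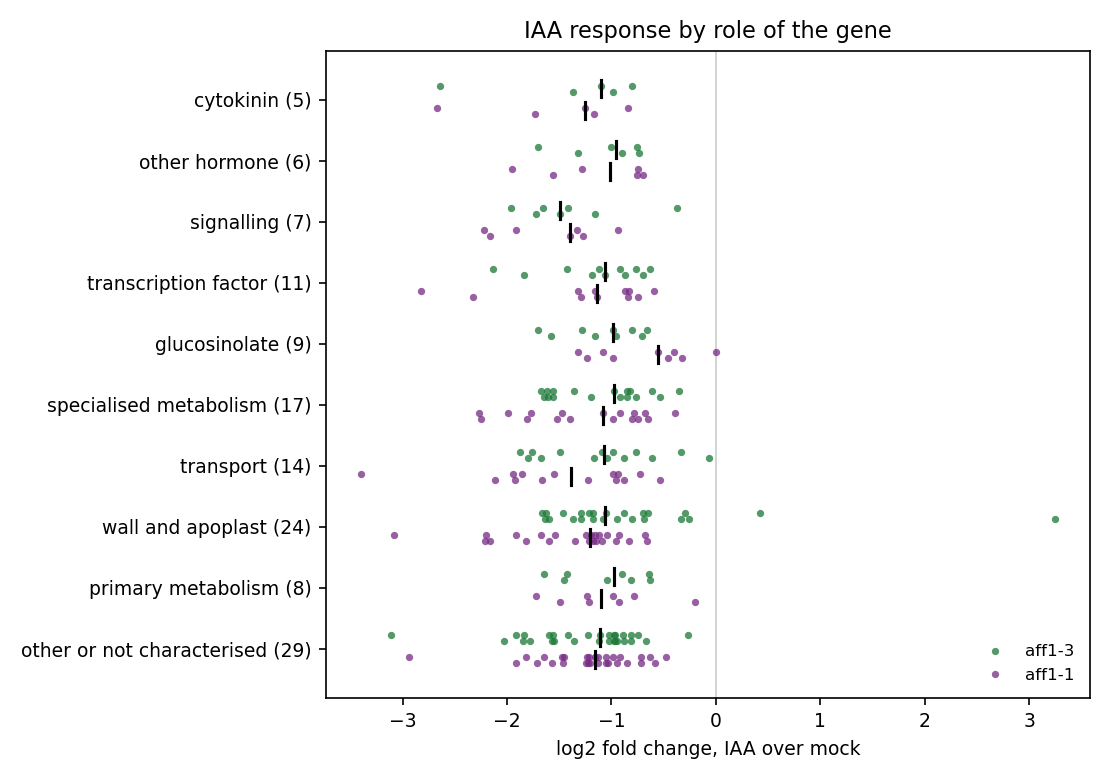
Log2 fold change of IAA over mock (x axis) of each of the 130 genes by role (y axis, number of genes in brackets), aff1-3 in green above aff1-1 in purple, with black lines at the medians. Nearly all points lie left of 0, with role medians between -1.497 and -0.95 in aff1-3 and between -1.39 and -0.55 in aff1-1, and the far right point is AT3G19020 in aff1-3 at 3.25.

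**Figure D4:**
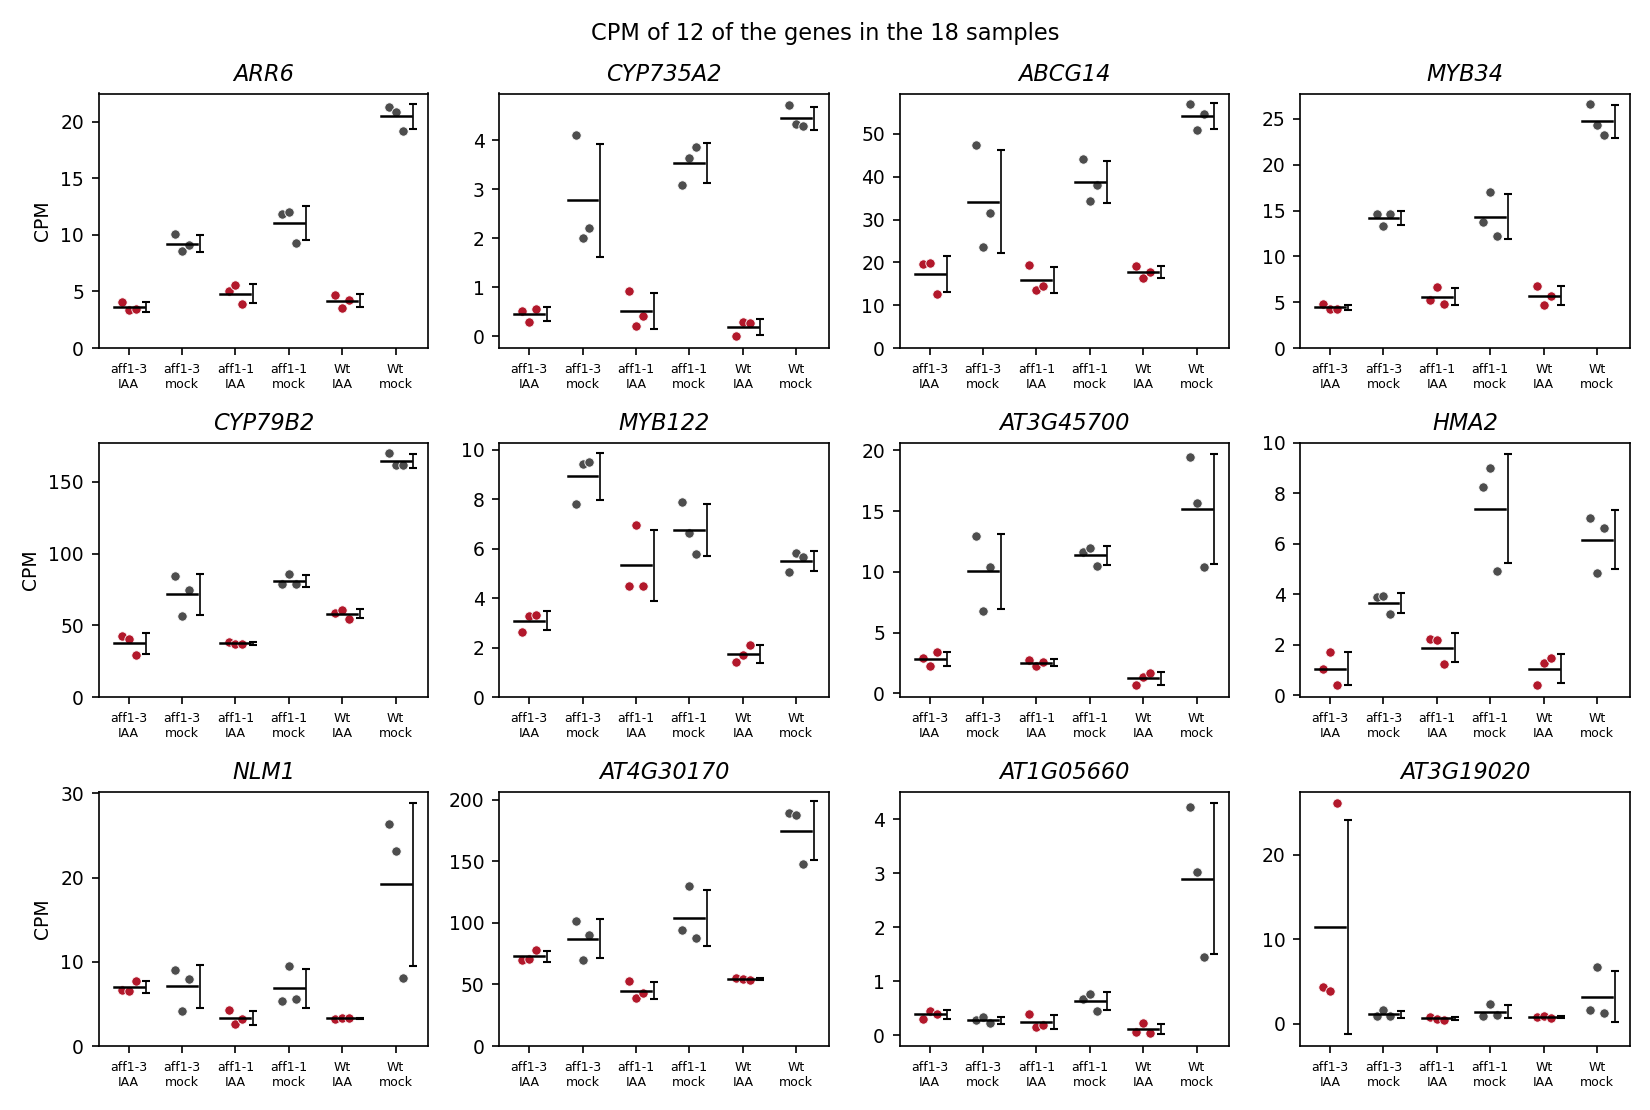
CPM (y axis) of 12 of the genes in the 18 samples by group (x axis), with red points for IAA, grey points for mock, lines at the means and bars of 1 SD (n = 3). ARR6, MYB34 and CYP79B2 have aff1 mock samples well under the Wt mock samples, NLM1 and AT4G30170 overlap between treatments in aff1-3, and AT3G19020 has 1 aff1-3 IAA sample at 26.1 CPM.

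The alleles were compared directly, since those samples took no part in choosing the genes. The spread behind these p-values and those for each allele was estimated over all 6 groups. The Wt libraries that chose the genes thus entered it. In mock, none of the 130 genes was called different between aff1-3 and aff1-1, and 0.139% of all tested genes were. An unadjusted edgeR p below 0.05 was found in 15 genes (11.5%) and in 10.3% of all genes, and DESeq2 and limma called 0. For the response to IAA none was called either, by edgeR, DESeq2 or limma. With edgeR 14 genes (10.8%) had an unadjusted p below 0.05, against 7.06% of all. That edgeR test called 0% of all tested genes, so it does not show that the responses were alike. After IAA, 2 genes differed, AT4G31330 and AT3G19020 (0.181% of all tested genes; 25 genes, 19.2%, had an unadjusted p below 0.05, against 12.3% of all). The median difference of aff1-3 minus aff1-1 was -0.13 in mock, -0.05 with IAA and 0.06 for the response on the log2 scale. The signed fold change was higher in aff1-3 in 78 genes, AT3G19020 with its rise among them, and lower in 52. Of the 19383 tested genes, 9865 were higher and 9518 lower. Across the 130 genes the fitted responses of the alleles had a Pearson correlation of 0.516, or 0.623 without AT3G19020, beside 0.672 over all tested genes. Genes are not independent replicates and all come from the same 12 libraries.

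AT4G31330 (chr4:15202288-15203562, plus strand), a putative transmembrane protein gene of unknown function, was at 1.11, 1.51 and 1.82 CPM in aff1-3 IAA samples, against 5.97, 5.72 and 5.49 CPM in aff1-3 mock samples. It was at 3.49, 3.102 and 3.22 CPM in aff1-1 IAA samples, against 6.67, 6.71 and 6.49 CPM in aff1-1 mock samples, so that the samples of aff1-3 lay under those of aff1-1 in both treatments. The mock difference was -0.18 ± 0.16 on the log2 scale (edgeR adjusted p = 0.734). The IAA difference was -1.22 ± 0.20 on the log2 scale (edgeR adjusted p = 0.00309), and without aff1-3 IAA replicate 1 it was -1.04 (0.0636), without aff1-3 IAA replicate 2 -1.26 (0.0225) and without aff1-1 IAA replicate 3 -1.23 (0.0157). With only the groups compared in the fit the call was lost too (0.0486), and limma gave an adjusted p of 0.01. AT3G19020 (chr3:6558964-6562377, minus strand, 1 exon), a leucine-rich repeat protein gene, was at 4.39, 3.83 and 26.1 CPM in aff1-3 IAA samples, against 0.891, 1.62 and 0.903 CPM in aff1-3 mock samples. It was at 0.854, 0.569 and 0.515 CPM in aff1-1 IAA samples, against 0.9403, 2.3 and 1.07 CPM in aff1-1 mock samples. In Wt its level was 0.828, 0.959 and 0.737 CPM with IAA, against 1.62, 6.68 and 1.302 CPM in mock. Only Wt mock replicate 2 was thus above the 2 CPM that the choice asked of the mock mean. It was the 1 gene that rose after IAA in aff1-3, by 3.25 ± 0.66 on the log2 scale (edgeR adjusted p = 0.00211), and the high value of aff1-3 IAA replicate 3 weighed heavily: without it the rise was 1.83 (0.0378). Its log2 fold change was -1.04 ± 0.80 in aff1-1 (edgeR adjusted p = 0.573). The aff1-3 call was also lost without aff1-3 mock replicate 1 (0.0134) or 3 (0.0133), with limma (0.0245) and with only the groups compared (0.0117). Its IAA difference between the alleles was 4.04 ± 0.71 (edgeR adjusted p = 0.00721), and 2.62 without aff1-3 IAA replicate 3 (0.0499). The call was lost too without aff1-1 IAA replicate 1 (0.0167), 2 (0.0558) or 3 (0.0729), aff1-1 mock replicate 1 (0.0103) or 3 (0.0118), or Wt IAA replicate 1 (0.0127), 2 (0.0125) or 3 (0.0110), with limma (0.0195) and with only the groups compared (0.0115).

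**Figure D5:**
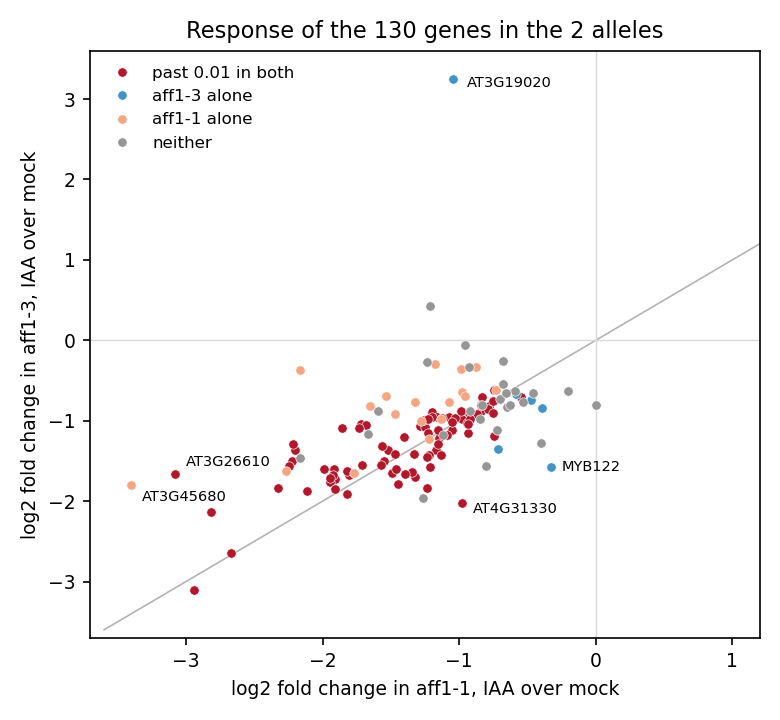
Log2 fold change of IAA over mock in aff1-3 (y axis) against that in aff1-1 (x axis) for the 130 genes, coloured by whether the adjusted p was below 0.01 in both alleles (80 lower), aff1-3 alone, aff1-1 alone or neither, with the line of equal response. Most points lie near the line, AT3G19020 stands far above it and MYB122 and AT4G31330 below it.

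Levels in the alleles were also set beside Wt, as a description only, because the Wt samples chose the genes and a gene picked for a wide gap in Wt may show a narrower one elsewhere. In mock, the median difference from Wt was -0.53 in aff1-3 and -0.37 in aff1-1 on the log2 scale, and the mock mean was under that of Wt in 115 and 108 genes. The fitted mock difference was negative in 108 of the 130 genes in aff1-3 and 106 in aff1-1. It was negative in 9707 and 9734 of the 19383 tested genes. All aff1 mock samples lay under all Wt mock samples in 75 genes in aff1-3 (16.2% of all tested genes) and 56 in aff1-1 (14.7%). They lay over all Wt mock samples in 7 genes in aff1-3 (9.67% of all tested genes) and 10 in aff1-1 (12%). With IAA the median difference was 0.33 in aff1-3 and 0.32 in aff1-1. All aff1 IAA samples lay over all Wt IAA samples in 49 genes in aff1-3 (12.1% of all tested genes) and 43 in aff1-1 (13.2%). They lay under all Wt IAA samples in 12 genes in aff1-3 (18.3% of all tested genes) and 10 in aff1-1 (28.4%). Among mock samples the root marker sum was lower in both alleles as well (1816 to 2378 CPM in aff1-3 and 2462 to 2661 CPM in aff1-1, against 3315 to 4226 CPM in Wt). Nearly all of that sum was PYK10. Without PYK10 the mock group means were 123 CPM in aff1-3, 126 CPM in aff1-1 and 136 CPM in Wt. With IAA the root marker sum was 2179 to 2437 CPM in aff1-3 and 2613 to 2751 CPM in aff1-1, overlapping the mock samples of each allele. In Wt IAA it was 3053 to 3270 CPM, under every Wt mock sample. Its part in the mock levels and in the responses to IAA was not tested.

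By structure, 31.5% of the 130 genes had a single exon, against 15.8% of 19115 tested nuclear protein-coding genes, with a median of 3 exons against 4 and an exon length of 1524.5 against 1778 bases. They lay on all 5 chromosomes, and 14 of them formed 7 pairs of direct neighbours. In 4 of the pairs the neighbours share a family: AT3G45070 and AT3G45080, UMAMIT20 and UMAMIT17, AT4G12510 and AT4G12520, and AT4G30450 and AT4G30460. The glycine-rich protein genes AT4G30450 and AT4G30460 both fell in both alleles, by 1.22 and 1.603 on the log2 scale in aff1-3 and by 1.15 and 1.91 in aff1-1. Reads of near-identical neighbours can be lost or split, since only uniquely aligned reads were counted. For 24 of the genes another counted gene overlaps the model, the most abundant being ROC4 (1307 CPM in Wt mock) on the strand opposite AT3G62040. AT3G62040 fell by 0.95 ± 0.16 on the log2 scale in aff1-3 (edgeR adjusted p = 0.000416) and fell by 1.16 ± 0.16 on the log2 scale in aff1-1 (edgeR adjusted p = 2.71e-05), and the part of ROC4 reads in it was not tested. Other named genes with an overlapping gene on the opposite strand were SKOR (25.3 CPM for its neighbour in Wt mock), AT4G02850 (44.3 CPM) and AT5G07580 (9.69 CPM). The opposite-strand neighbours of AK3 (1.03 CPM in Wt mock), BGAL4 (0.673 CPM), AT3G01260 (0.07 CPM), ROT3 (0.018 CPM) and ABCG14 (0.015 CPM) had few reads.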

How the data were processed

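Gene counts of 18 whole-seedling libraries were used. The authors made the deposited counts, which are whole-number reads per gene, by aligning reads with STAR to TAIR10 and counting uniquely aligned, unambiguous reads with Subread featureCounts, and they then used edgeR and limma. The strand setting is not given in the sources used here. The labels and the study's methods name different library preparations (a SMARTer kit and Ribo-Zero Gold), and the preparation can change which transcripts are counted. The 3 libraries of a group come from repeated treatments of 1 line, and no batch is named.

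CPM was computed on the column sums. Of the rows, 99.0% matched the TAIR10.1 annotation of RefSeq, which gave gene structure and sequence, and 4 ribosomal RNA rows were left out of tests. The low-count filter asked for more than 1 CPM in 2 or more libraries of any 1 group and left 19383 genes. Counts of all 6 groups were fitted with edgeR 4.0.16 (R 4.3.3) by the quasi-likelihood test with TMM scaling, and p-values were adjusted by Benjamini-Hochberg over all kept genes with a threshold of 0.01. Errors after ± are approximate standard errors, taken as the absolute log2 fold change divided by the square root of the test's F value. The alternatives were DESeq2 1.42.0, limma 3.58.1 with sample weights, other scalings, filters and limits, only the groups compared, a replicate block, and each library left out. On simulated counts of 19383 genes the test of aff1-1 called 79% of genes changed by 1.3 and 99% of those changed by 2 on the log2 scale, with 3 unchanged genes called. The changes were rises and falls together, in genes above 1 CPM on average and in aff1-1 IAA alone. These shares therefore do not give the recovery for the 130 genes or for aff1-3. Smaller changes were not simulated, whereas the median fitted change of the 130 genes was -1.07 in aff1-3 and -1.19 in aff1-1.

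The 130 genes and the gene lists were chosen with earlier results of these data known. Named by rule were the genes with the most negative Wt ratio, the highest Wt mock level, the largest and smallest falls over both alleles, those next to the limit, members of the gene lists, and those that differed between the alleles. Other genes named were chosen after their values were seen. The Wt contrast, and every difference of an allele from Wt, shares the samples that chose the genes and was not tested.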

Additional observations from a re-analysis of the deposited data

Results flagged for a closer look

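In AT3G19020, the leucine-rich repeat gene, the samples of the alleles were ordered in opposite ways. Every aff1-3 IAA sample lay above every aff1-3 mock sample, and every aff1-1 IAA sample lay below every aff1-1 mock sample. With edgeR the fold change passed the threshold in aff1-3 (3.25 ± 0.66 on the log2 scale, adjusted p = 0.00211) and not in aff1-1 (-1.04 ± 0.80, adjusted p = 0.573). Without aff1-3 IAA replicate 3 the aff1-3 call was lost (1.83, edgeR adjusted p = 0.0378). The difference of the responses, aff1-3 minus aff1-1, was 4.29 ± 1.03 on the log2 scale, and it did not pass the threshold either (adjusted p = 0.417).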

How the results depend on the processing

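The number of genes depended on the limit and was 262 at a log2 limit of -1.0 and 65 at -1.6, with 144 and 101 at a mock minimum of 1 and 5 CPM, 167 and 99 with a constant of 0.1 and 1, 139 with TMM library sizes, and 130 to 150 with 1 Wt library left out (114 to 124 shared). At the limits of -1.0 and -1.6, aff1-3 had 143 and 42 genes that fell and aff1-1 had 164 and 51. The medians were -0.86 and -1.37 for aff1-3, and -0.93 and -1.47 for aff1-1. With 1 library left out, 68 to 87 genes fell in aff1-3 (median -1.14 to -1.01) and 83 to 100 in aff1-1 (median -1.24 to -1.12). The number that differed between the alleles after IAA was 4 with DESeq2, 1 with limma, 4 with no filter, 4 at an adjusted p of 0.05, and 0 to 3 with 1 library left out. In mock and for the response it was 0 under every alternative run. The fold change of FMO GS-OX1 after IAA in aff1-1, 0.0027, was -0.0059 with DESeq2 and with RLE size factors, -0.0331 with column sums, -0.0011 with no filter, -0.0067 with only the groups compared, and -0.159 to 0.22 with 1 library left out. That of NLM1 after IAA in aff1-3 was -0.318 to 0.131 with 1 library left out, above 0 without aff1-3 mock replicate 1 or replicate 3. With the replicate block, the calls were 87 for aff1-3 (median -1.07) and 101 for aff1-1 (median -1.19), and 2 differed between the alleles after IAA. With only the groups compared in the fit, aff1-3 calls went from 22 to 15 in the glucosinolate list. In the type-A response regulators they went from 6 to 3. The aff1-1 calls went from 16 to 17 and stayed at 6. The total over the 130 genes in that fit is not given here, so the aff1-3 total may be less sturdy than the aff1-1 total. Samples with the same number correlated between -0.078 and 0.148, so the numbers were not taken to pair the samples. Of the alternatives for single named genes, 2593 kept direction and call, 76 lost a call, 23 gained one and 12 changed sign. Counting error is largest for the 29 genes under 5 CPM in Wt mock, and the shallowest library had 12610301 counts.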
